A study of Mus musculus with 12 samples.

Results

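Macrophage identity and activation are set by a small number of transcription factors, and 9 of them were followed here in tumour-associated macrophages (TAMs): Spi1, Cebpb, Irf8, Irf1, Maf, Runx1, Bhlhe40, Nr1h3 and Pparg. They were chosen by name, as 9 of 24781 gene rows. All 9 had at least 1 molecule, and 8 of them were among the 9580 genes with enough molecules to be tested, the exception being Pparg. TAMs came from wild-type (WT) mice bearing MC38 tumours, a mouse colon adenocarcinoma line grown in the skin of the flank. Mice received either picrotoxin, a blocker of the GABA type A receptor channel, or its solvent DMSO, and both groups otherwise carried the same tumour and no engineered allele. For each library 100 CD45+CD11b+F4/80high cells were sorted on day 7 after inoculation, which gave 6 DMSO and 6 picrotoxin libraries. The labels call the libraries independent preparations and give no age of the mice. The methods of the study assign 1 mouse to each library, whereas its figure text gives fewer mice than libraries, so the p-values measure the spread between libraries, part of which may be technical. Each library was a pool of sorted cells, and fewer cells of a type and less RNA per cell cannot be told apart in it.

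PU.1, the product of Spi1, opens the enhancers of the myeloid lineage, and the other factors act largely on sites that it has made accessible. C/EBPβ and RUNX1 work beside it in monocyte differentiation, IRF8 steers progenitors towards monocytes and away from granulocytes, and IRF1 and IRF8 carry the response to interferon gamma. MAF is tied to the resident and IL-10-producing macrophage state, BHLHE40 restrains Il10, and the nuclear receptors LXRα (Nr1h3) and PPARγ (Pparg) sense sterols and fatty acids.

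Libraries held 201697 to 309617 molecules, and counting error alone allows a share of up to 0.00149% for a gene at 0 in the smallest of them. Macrophage markers (Adgre1, Csf1r, C1qa and 7 others) were detected for 10 of 10 genes and made up 0.786 to 1.09% of molecules in DMSO and 0.926 to 1.06% in picrotoxin libraries. Monocyte markers, from the lineage that TAMs derive from, were detected for 7 of 7 genes, with 227 to 371 molecules per DMSO library and 256 to 390 per picrotoxin library. There were at most 12 molecules per library for 8 neutrophil genes (S100a9, Ly6g, Retnlg and Camp at 0 throughout) and 13 for 8 dendritic cell genes (Flt3 and Cd209a at 0). For 9 T and NK cell genes (Cd3e, Cd3g, Cd8a and Gzma at 0) DMSO libraries held at most 1 molecule and picrotoxin libraries at most 2, except picrotoxin library 6 with 23, of which 20 were Gzmb. B cell genes reached at most 3 molecules (Ms4a1, Cd79a and Pax5 at 0), epithelial genes 21 (Epcam, Krt18, Krt19 and Cldn4 at 0) and endothelial genes 10 (Tek at 0). Fibroblast and matrix genes were uneven. All 13 were detected, with 205 to 1378 molecules per DMSO library and 275 to 509 per picrotoxin library, and with Fn1 set aside DMSO libraries 3, 5 and 6 held 218, 814 and 147 molecules where every other library held at most 60.

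Interferon gamma signalling reaches many of its genes through a palindromic element, TTCNNNGAA, known as the gamma-activated site. The 250 bases upstream of the first RefSeq start sites of Irf8 and Irf1 (GRCm38.p6, plus strand) are shown because both factors carry the interferon gamma response. Over all libraries neither had an edgeR adjusted p under 0.05 between the groups (0.341 for Irf8 and 0.827 for Irf1). A part of interferon gamma in their values was not tested. Capitals mark each match, and since the pattern is its own reverse complement a match on either strand is a match on both. The stretches are chr8:120736108-120736357 and chr11:53769764-53770013.
Irf8: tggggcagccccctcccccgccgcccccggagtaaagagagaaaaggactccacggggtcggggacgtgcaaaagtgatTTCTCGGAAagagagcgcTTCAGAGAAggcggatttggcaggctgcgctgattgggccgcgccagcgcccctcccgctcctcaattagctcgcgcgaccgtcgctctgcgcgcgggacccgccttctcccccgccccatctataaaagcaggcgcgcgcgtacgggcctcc
Irf1: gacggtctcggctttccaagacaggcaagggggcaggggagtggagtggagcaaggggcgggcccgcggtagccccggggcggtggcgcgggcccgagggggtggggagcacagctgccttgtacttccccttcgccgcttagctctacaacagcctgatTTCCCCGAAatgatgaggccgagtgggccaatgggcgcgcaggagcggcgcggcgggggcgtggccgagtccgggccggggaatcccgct
Irf8 held 2 matches, beginning 171 and 153 bases upstream of the start site, and Irf1 held 1, beginning 90 bases upstream. Of 32851 mouse promoter windows of the same length, 7.02% held at least 1. Windows of Cebpb, Runx1, Nr1h3 and Pparg, and of the second start sites of Irf8 and Irf1, held no match of these letters. The other letters searched, on both strands, were the interferon-stimulated response element (in 2.98% of windows), a PU.1 site (GAGGAAGT, 2.44%), a C/EBP site (TTGCNNAA, 9.56%), a RUNX site (TGTGGT, 14.0%) and an E-box (CACGTG, 6.02%), the element bound by BHLHE40. Among members these matched only in Runx1, with an E-box beginning 71 bases upstream of its first start site, and in Pparg, with C/EBP letters beginning 215 and 16 bases upstream of start site 3. A match describes the sequence and does not show that any factor was bound there in these cells.

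Between picrotoxin and DMSO, no member passed the test over all genes. In edgeR's quasi-likelihood test, 0 of the 8 tested members had a Benjamini-Hochberg adjusted p under 0.05, against 5 of 9580 genes tested (0.0522%). At an unadjusted p under 0.05 there was 1 member, Irf8, in both edgeR and DESeq2, where 7.77% of all tested genes passed the same limit in edgeR and 4.04% in DESeq2. Of the 8 members, 7 had a log2 fold change above 0 (picrotoxin against DMSO), and so did 49.2% of all tested genes and 53.8% of those with a mean above 10 normalised molecules. The median log2 fold change of the 8 was 0.18, beside -0.01 over all tested genes. No member had groups without overlap, as was the case for 0.386% of genes. Levels below are normalised molecules, that is, deposited counts divided by the DESeq2 size factor of the library.

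**Figure D1:**
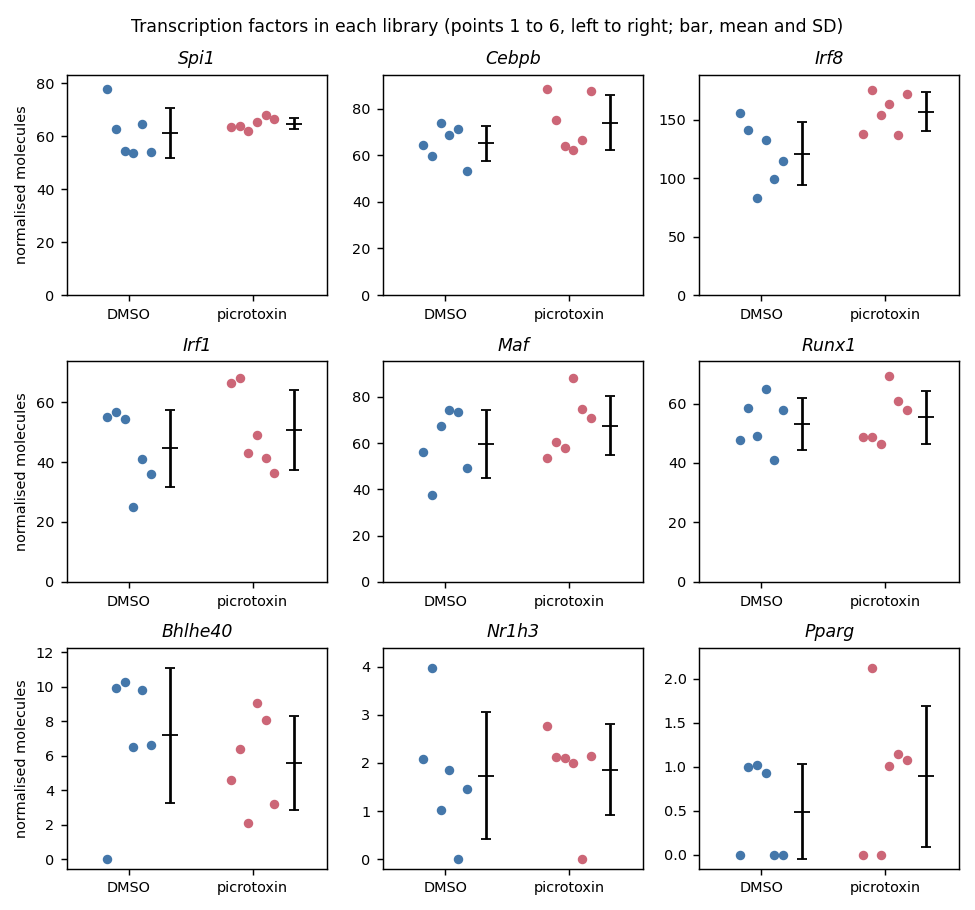
Normalised molecules (vertical axis, linear from 0) of the 9 factors in each of 6 DMSO (blue) and 6 picrotoxin (red) libraries, in the order of their numbers within each group; the bar gives the mean and SD. The groups overlap for every factor, and Irf8 shows the lowest DMSO points, 83.0 and 99.0, under all picrotoxin points.

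The lineage factors Spi1, Runx1 and Cebpb were present in every library, and no difference between the groups passed the test. Spi1 (chr2:91082390-91115756, plus strand) stood at 78.0, 62.6, 54.3, 53.8, 64.6 and 54.2 normalised molecules in DMSO libraries 1 to 6 and at 63.6, 63.7, 62.0, 65.2, 67.9 and 66.4 in picrotoxin libraries 1 to 6. All 6 picrotoxin libraries lay above the DMSO mean of 61.2 ± 9.47 (SD, n = 6), yet DMSO library 1 was higher than any of them. The log2 fold change was 0.10 (SE 0.12, 95% interval -0.16 to 0.35, edgeR adjusted p = 0.921), and it was 0.18 without DMSO library 1, 0.052 to 0.059 without DMSO library 3, 4 or 6, 0.22 in libraries 3 to 6 alone and -0.15 in libraries 1 and 2 alone. The picrotoxin values were tight, with a coefficient of variation of 3.27% against 15.5% in DMSO and 12.4% from counting alone at this mean number of molecules.

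Runx1, which partners with CBFβ (chr16:92601466-92826149, minus strand), ran from 40.9 to 64.9 normalised molecules in DMSO (median 53.5) and from 46.3 to 69.2 in picrotoxin (median 53.4). The groups covered almost the same range, and the log2 fold change of 0.06 (SE 0.14, edgeR adjusted p = 0.953) turned to -0.010 without DMSO library 5, -0.0080 without picrotoxin library 4, -0.059 without DMSO libraries 3 and 5 and -0.13 in libraries 1 and 2 alone. Cebpb (chr2:167688915-167690418, plus strand) ran from 53.5 to 73.7 in DMSO (median 66.6) and from 62.2 to 88.5 in picrotoxin (median 71.0). Picrotoxin libraries 1, 2 and 6 exceeded every DMSO library, while the other 3 lay inside the DMSO range. Its log2 fold change was 0.20 (SE 0.13, 95% interval -0.05 to 0.46, edgeR adjusted p = 0.756), with 0.40 in libraries 1 and 2 alone and 0.098 in libraries 3 to 6 alone.

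Irf8 (chr8:120736358-120756694, plus strand) had the largest difference among members with at least 10 molecules per library. It stood at 156, 141, 83.0, 133, 99.0 and 115 normalised molecules in DMSO libraries 1 to 6 and at 138, 175, 155, 164, 137 and 173 in picrotoxin libraries 1 to 6. The ranges overlapped: 4 DMSO libraries lay under every picrotoxin library, and DMSO libraries 1 and 2 lay among them. Means were 121 ± 27.3 and 157 ± 16.6 (SD, n = 6 each), a 1.31-fold difference (95% interval 1.09 to 1.56), with a log2 fold change of 0.39 (SE 0.13). The edgeR p was 0.00426 before and 0.341 after adjustment over all genes, which placed Irf8 at rank 119 of 9580. DESeq2 gave p = 0.00631 (adjusted 0.175), and the exact two-sided permutation test of CPM on the log2 scale gave p = 0.026.

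The size of the Irf8 difference moved with matrix transcripts and with the library numbers. DMSO libraries 3, 5 and 6, which had the most matrix molecules apart from Fn1, were also the 3 lowest for Irf8. Without DMSO libraries 3 and 5 the log2 fold change was 0.21, no longer past the unadjusted limit (edgeR adjusted p = 0.900). With the matrix score of each library as a covariate it was 0.33 and stayed past that limit (edgeR adjusted p = 0.338), and with that score taken without Fn1 it was 0.22 and did not (edgeR adjusted p = 0.849). By number, libraries 1 and 2 of both groups stood apart from 3 to 6 in an earlier analysis of these counts, and the labels name no batch. Irf8 was at 141 to 156 in DMSO and 138 to 175 in picrotoxin libraries 1 and 2, so that these overlapped. In libraries 3 to 6 it was at 83.0 to 133 in DMSO and 137 to 173 in picrotoxin. The highest DMSO and the lowest picrotoxin value there lay close. No weight is put on their order, since the share of all genes so ordered was not counted. Libraries 3 to 6 alone gave a log2 fold change of 0.56 (edgeR adjusted p = 0.0437), and 46 of 9641 genes passed the adjusted limit there. It was the only alternative in which a member did. The split was defined from these counts, so this p is a description and not a test of Irf8. Libraries 1 and 2 alone, 2 per group, gave 0.06 (SE 0.14, 95% interval -0.24 to 0.37, edgeR adjusted p = 0.977), and the difference between these estimates was not tested. The part of matrix-bearing cells in these values was not tested.

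Irf1 (chr11:53770014-53778374, plus strand), which induces antigen presentation and guanylate-binding protein genes, stood at 55.1, 56.6, 54.3, 25, 40.9 and 35.9 normalised molecules in DMSO libraries 1 to 6 and at 66.4, 68.0, 43.1, 49.2, 41.4 and 36.4 in picrotoxin. The highest values in each group were libraries 1 and 2, at a mean of 61.5 over 4 libraries, beside 40.8 over the 8 libraries 3 to 6. This split was wider than the one by treatment, for which means were 44.6 ± 12.8 and 50.7 ± 13.4 (SD, n = 6 each) and the log2 fold change was 0.22 (SE 0.18, edgeR adjusted p = 0.827). That estimate was 0.090 without DMSO library 4, 0.12 without picrotoxin library 1 or 2 and 0.13 once the matrix score entered the fit. No test was made of the split, since it was defined from these counts. The coefficients of variation of 28.7% in DMSO and 26.3% in picrotoxin were above the 14.3% that counting gives.

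**Figure D2:**
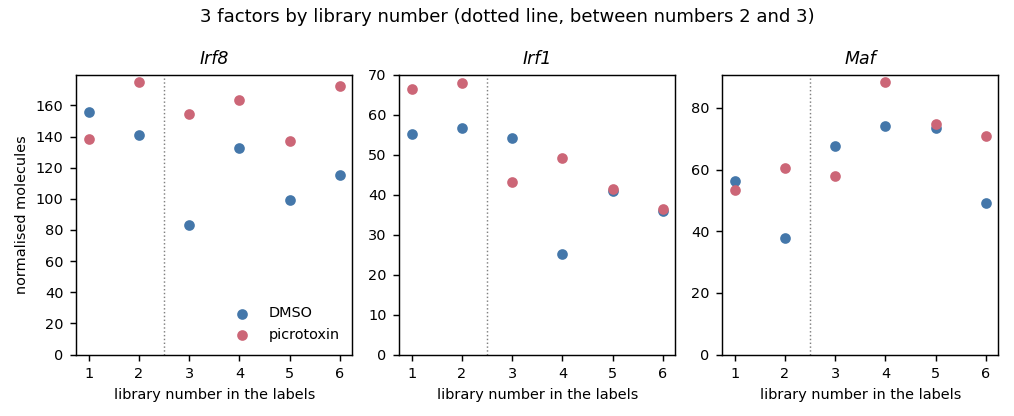
Normalised molecules (vertical axis, linear from 0) of Irf8, Irf1 and Maf against the library number in the labels, with DMSO in blue and picrotoxin in red. Irf1 is highest at numbers 1 and 2 in both groups. The groups overlap for Irf8 at numbers 1 and 2 and lie close at numbers 3 to 6 (DMSO up to 133, picrotoxin from 137). The labels do not say whether equal numbers mark paired mice.

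Maf (chr8:115682942-115707794, minus strand) ran from 37.7 to 74.2 normalised molecules in DMSO (median 61.9) and from 53.5 to 88.3 in picrotoxin (median 65.6). Libraries 1 and 2 were on the low side here, with a mean of 52.0 against 69.5 in libraries 3 to 6. The log2 fold change was 0.19 (SE 0.15, edgeR adjusted p = 0.826), and it was 0.30 (edgeR adjusted p = 0.603) with the matrix score as a covariate and 0.34 (edgeR adjusted p = 0.796) with the score taken without Fn1, both past the unadjusted limit. It was 0.31 without DMSO libraries 3 and 5, 0.089 without DMSO library 2 and 0.097 without picrotoxin library 4, none of which was past that limit. The transcript of Maf shares stretches of 50 bases with 352 other genes of the annotation, and how reads of several places were counted is not stated, so its count is uncertain.

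The remaining members were low. Bhlhe40 (chr6:108660629-108666925, plus strand) stood at 0, 9.93, 10.2, 6.49, 9.82 and 6.59 normalised molecules in DMSO libraries 1 to 6 and at 4.61, 6.37, 2.10, 9.03, 8.05 and 3.21 in picrotoxin. It was the only tested member with a negative log2 fold change, -0.37 (SE 0.39, edgeR adjusted p = 0.885), from 48 molecules in DMSO and 32 in picrotoxin, and the sign turned to 0.042 with the matrix score without Fn1 as a covariate and to 0.091 in libraries 1 and 2 alone. Nr1h3 (chr2:91184061-91202834, minus strand) gave 11 molecules in each group, or 7.24 CPM (exact binomial 95% interval 3.61 to 13) in DMSO and 8.03 CPM (4.01 to 14.4) in picrotoxin. DMSO library 5 and picrotoxin library 5 held none, and the log2 fold change of 0.18 (SE 0.64, edgeR adjusted p = 0.980) turned to -0.25 without DMSO libraries 3 and 5, -0.10 without DMSO library 5, -0.36 with the matrix score without Fn1 and -0.30 in libraries 1 and 2 alone. Pparg (chr6:115360951-115490399, plus strand) gave 3 molecules in DMSO, 1.97 CPM (0.407 to 5.77), and 5 in picrotoxin, 3.65 CPM (1.19 to 8.52). For Nr1h3 and Pparg a difference was not detectable at this depth, and these intervals cover counting error only.

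**Figure D3:**
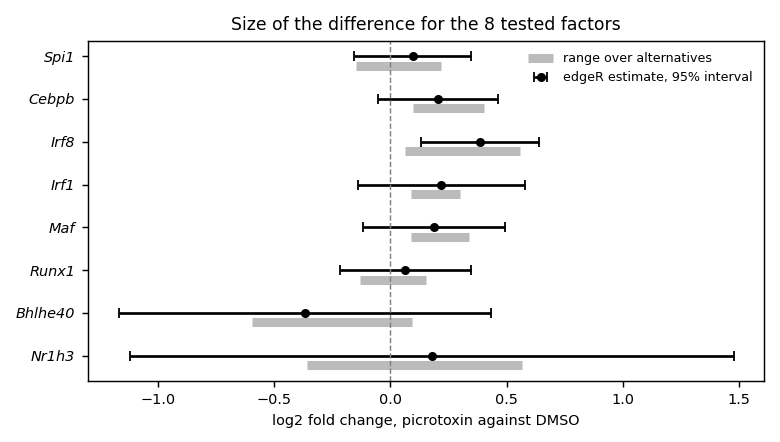
Log2 fold change of picrotoxin against DMSO (horizontal axis) for the 8 tested factors, as the edgeR estimate with its 95% interval (black) and the range over alternative settings (grey). The interval of Irf8, 0.13 to 0.64, lies above 0 before adjustment for the number of genes, and the other 7 include 0.

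All 9 members matched GENCODE mouse release 21 on GRCm38, the assembly also called mm10, which gave the positions above. Spi1 and Nr1h3 lie on chromosome 2 with 68304 bases between them, in which Mybpc3 and Madd are annotated. Spi1 held 53 to 79 molecules per library, Nr1h3 0 to 4, Madd 2 to 7 and Mybpc3 at most 1. In the annotation 8 of the 9 members, all but Spi1, overlap another gene, most of them predicted genes. Irf8 and Nr1h3 overlap one on their own strand (Gm20388 and Gm13783), whose reads cannot be told apart where they overlap. Nr1h3 and the other 6 overlap one on the opposite strand, among them Cebpb with Tmem189 (5 to 20 molecules per library), and since strand use is not stated those reads cannot be told apart either.

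No pair of members was shown to vary together. Over the 12 libraries, with group means removed, 0 of the 36 member pairs had a Benjamini-Hochberg adjusted p under 0.05 for Pearson's r or Spearman's rho (permutation within groups, two-sided, smallest adjusted p for r = 0.827). At an unadjusted 0.05, Maf with Nr1h3 passed by both measures (r = -0.63, permutation p = 0.0437, and rho = -0.62, permutation p = 0.0457, with r = -0.60 without the 2 libraries farthest from the median of Maf), and Irf8 with Nr1h3 by rho (rho = 0.69, permutation p = 0.0254) but not by r (r = 0.60, permutation p = 0.0589). With the mean of each library number stratum (1 and 2, 3 to 6) removed as well, Maf with Nr1h3 gave r = -0.38 and Irf8 with Nr1h3 r = 0.42. The 2 pairs then past the unadjusted limit were Irf8 with Irf1 (r = -0.76) and Spi1 with Nr1h3 (r = -0.73), each with an adjusted permutation p of 0.510. Nr1h3 has at most 4 molecules in a library.

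Genes most like each member were searched among 3827 or 3828 genes with a mean count of at least 10, by the correlation of deviations from group means over the same 12 libraries, which share depth and library number. These correlations are descriptions. Irf1 was closest to Iigp1 (r = 0.93) and Tgtp1 (r = 0.92), interferon-inducible GTPases, and Iigp1 ran from 113 to 138 normalised molecules in the 4 libraries numbered 1 and 2 and from 49.2 to 142 in the other 8. Irf8 was closest to Arhgdib (r = 0.92) and Cyba (r = 0.91), a subunit of the phagocyte oxidase, and Spi1 to Ms4a6c (r = 0.94) and the RNA sensor Tlr8 (r = 0.87). Nr1h3, with 0 to 4 molecules per library, was closest to the methyl-CpG-binding Mbd2 (r = 0.88) and to Abcg1 (r = 0.86, rho = 0.92). Abcg1, the cholesterol exporter that LXRα induces, ran from 18.8 to 42.7 normalised molecules in DMSO and from 17.3 to 32.3 in picrotoxin. The nearest genes of Runx1 were Cep350 and Ptbp3 (r = 0.91 each), those of Maf were Cops2 (r = 0.93) and Cnot7 (r = 0.86), those of Bhlhe40 were Ubr3 (r = 0.91) and Ctdnep1 (r = 0.89), and those of Cebpb were Sap18 and Minos1 (r = 0.78 each).

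The pathways around the members were then read from 12 lists of relatives, partners and textbook target genes. Of 158 listed genes 146 were tested, and 0 had an edgeR adjusted p under 0.05. At an unadjusted p under 0.05, 24 had a positive and 2 a negative log2 fold change, or 16.4% positive where 3.65% of all tested genes had one and 4.11% a negative one. Listed genes are more abundant than most, and with a mean above 10 normalised molecules the positive share was 20.8% of 106 listed genes beside 6.71% of all genes, with 1 negative listed gene beside 4.09% of all genes. The 24 became 13 with DESeq2 (1 negative), where the positive share of all genes was 1.83%, 13 with library totals in place of TMM (3 negative, all genes 2.24%), 14 without DMSO library 3 (2 negative, all genes 3.11%) and 13 without DMSO libraries 3 and 5 (3 negative, all genes 2.64%). They became 28 in limma-voom (2 negative, all genes 4.23%), 29 in libraries 3 to 6 alone (3 negative, all genes 4.58%) and 10 in libraries 1 and 2 alone (9 negative, all genes 2.61%). The lists were chosen with results of these data known, and nothing beyond these counts is drawn from them.

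**Figure D4:**
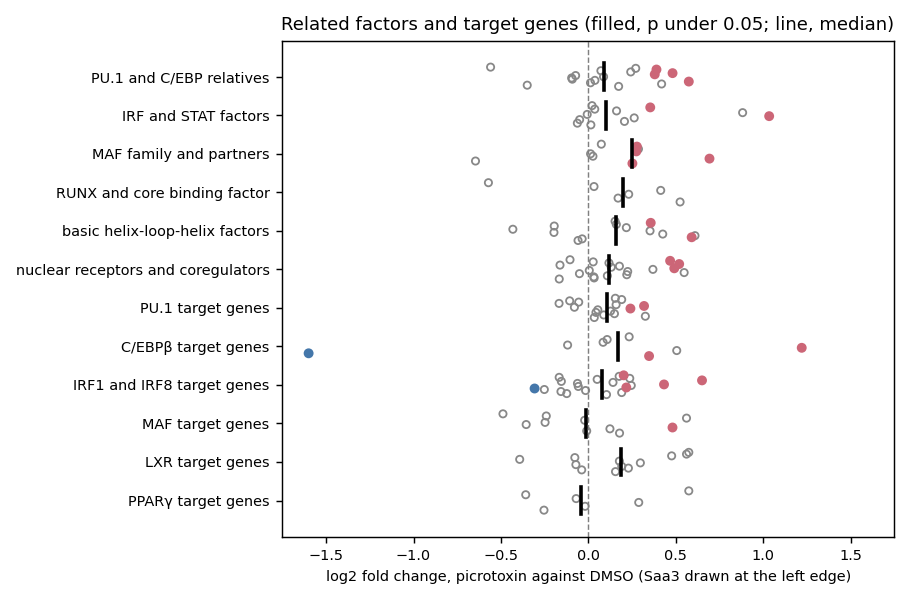
Log2 fold change of picrotoxin against DMSO (horizontal axis) for the tested genes of 12 lists, with the median of each list as a black line. Filled points have an unadjusted edgeR p under 0.05 (24 positive, red, and 2 negative, blue), none passes the adjusted limit, and Saa3, at -5.66, is drawn at the left edge.

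Among relatives and partners of the members, 15 of 76 tested factors had an unadjusted p under 0.05 with a positive log2 fold change and 0 with a negative one. Beside PU.1 and C/EBPβ, 4 of 17 did so, among them Fli1, an ETS factor (0.57, SE 0.19, edgeR adjusted p = 0.339), Zeb2, a zinc finger factor of monocytes (0.39, SE 0.14), and Cebpg, a C/EBP partner (0.38, SE 0.16). Cebpg was at 20.4 to 29.7 normalised molecules in DMSO and 25.2 to 38.1 in picrotoxin. Fli1 and Zeb2 share 50-base stretches with more than 100 other genes, as do Runx3, Tcf4, Ncor1, Saa3 and Lpl, and their counts are uncertain.

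In the MAF family, 4 of 9 tested genes passed the unadjusted limit with a positive log2 fold change, and the small MAF protein gene Mafg had the lowest p of the related factors. Mafg was at 10.4 to 25 normalised molecules in DMSO (median 20.7) and 26.7 to 36.8 in picrotoxin (median 30.6), so that its groups did not overlap. Its log2 fold change was 0.69 (SE 0.18, edgeR adjusted p = 0.182), and it passed the adjusted limit only when every gene with at least 1 count was tested (adjusted p = 0.0435). Mafg overlaps Sirt7 on its own strand. Nfe2l2, which pairs with small MAF proteins in the oxidative stress response, had a log2 fold change of 0.27 (SE 0.12) and Atf3, a stress-induced repressor, of 0.28 (SE 0.13).

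Of 12 tested IRF and STAT factors, 2 passed that limit, both positive: Stat3, which carries IL-6 and IL-10 signals (35.2 to 56.2 normalised molecules in DMSO, 46.7 to 63.2 in picrotoxin, log2 fold change 0.35, SE 0.14, edgeR adjusted p = 0.495), and Batf, a low gene (log2 fold change 1.03, SE 0.51). Batf3, a partner of IRF8, had a log2 fold change of 0.88 (SE 0.44, edgeR adjusted p = 0.654) from 0 to 5.96 normalised molecules in DMSO and 3.15 to 8.29 in picrotoxin. Among nuclear receptors and coregulators 3 of 19 did, all coregulators and all positive: Ncor1 (0.49, SE 0.16, edgeR adjusted p = 0.312), a corepressor, and the coactivators Ncoa3 (0.52, SE 0.19) and Med1 (0.47, SE 0.21). Among basic helix-loop-helix factors 2 of 13 did, Tcf4 (0.36, SE 0.14) and Tfe3 (0.59, SE 0.25), a lysosomal gene regulator, while Max was at 0.35 (SE 0.20). Beside RUNX1, 0 of 6 genes did, with Cbfb, its obligate partner, at 0.23 (SE 0.17), Runx3 at 0.17 (SE 0.13) and the deacetylase Hdac3 at -0.57 (SE 0.43).

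At an unadjusted edgeR p under 0.05, 3.65% of all tested genes were positive and 4.11% negative. Among target genes, 9 of 70 passed with a positive log2 fold change and 2 with a negative one. For PU.1 these were 2 of 16, Cybb, the phagocyte oxidase subunit also driven by IRF8 (0.32, SE 0.10, edgeR adjusted p = 0.312), and the lysosomal Laptm5 (0.24, SE 0.10), with Csf2ra at 0.33 (SE 0.17). Cybb was at 190 to 264 normalised molecules in DMSO (median 207) and 244 to 291 in picrotoxin (median 271). For C/EBPβ 2 of 8 were positive, the chitinase-like Chil3 (1.22, SE 0.41) and Arg1, arginase 1 (0.35, SE 0.14, edgeR adjusted p = 0.514), and 1 was negative. Arg1 was at 285 to 524 normalised molecules in DMSO and 306 to 731 in picrotoxin. In libraries 3 to 6 alone, a split defined from these counts, it passed the adjusted limit (log2 fold change 0.52, edgeR adjusted p = 0.0461). It was not past the unadjusted limit in DESeq2, in the exact permutation test, without DMSO library 3 or without picrotoxin library 3 or 6, the log2 fold change being 0.22 without picrotoxin library 3, and it was -0.13 in libraries 1 and 2 alone. The negative one, Saa3, rested on 1 library, at 80.2 normalised molecules in DMSO library 5 and at most 1.06 in the other 11, and without that library it had too few molecules to be tested.

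For IRF1 and IRF8, 4 of 20 target genes were positive and 1, the immunoproteasome subunit Psmb10, was negative (-0.31, SE 0.14). Nos2, inducible nitric oxide synthase, was at 6.49 to 13.9 normalised molecules in DMSO and 10.5 to 18.1 in picrotoxin (0.65, SE 0.25, edgeR adjusted p = 0.479). The light chain of MHC class I, B2m (0.22, SE 0.09), Cst3 (0.20, SE 0.09) and the guanylate-binding protein Gbp5 (0.43, SE 0.20) were the other 3. On the MAF target list 1 of 10 was positive, the mannose receptor Mrc1, at 42.0 to 108 normalised molecules in DMSO and 70.0 to 119 in picrotoxin (0.48, SE 0.18, edgeR adjusted p = 0.428), with the efferocytosis receptor Mertk at 0.56 (SE 0.28) and C1qa at 0.18 (SE 0.10). Of the 10, 4 had a log2 fold change above 0, and the list median was -0.016.

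The sterol and fatty acid receptors had 0 of 12 and 0 of 6 tested target genes past an unadjusted 0.05. For LXR the smallest p-values after Mertk were those of Apoe (0.19, SE 0.11) and Smpdl3a (0.48, SE 0.27), and the list median was 0.18. For PPARγ they were Plin2, a lipid droplet coat (0.29, SE 0.18), Acsl1, an acyl-CoA synthetase (-0.36, SE 0.31), and Lpl, lipoprotein lipase (0.57, SE 0.52), with a list median of -0.04. The sign of Acsl1 turned in libraries 3 to 6 alone (0.087) and that of Lpl without picrotoxin library 4 (-0.31).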

How the data were processed

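The deposited table holds molecule counts, whole numbers by gene symbol, for all 12 libraries. Per the labels, RNA was primed with oligo-dT carrying a molecular barcode, so a count stands for a barcode and not a PCR copy, and 3′ ends are favoured. Per the methods of the study, reads were mapped to mm10 with STAR and refFlat annotation. Strand use, reads of several places and barcode errors are not given in the sources used here. Of 24781 rows, 10966 held no molecule and 26 carried a date in place of a symbol. Same-group libraries were compared before averaging, and chi-square per degree of freedom over 30 pairs was 1.23 to 3.15, more than sampling noise.

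Genes with a mean above 1 normalised molecule were tested with edgeR 4.0.16 (quasi-likelihood, TMM, no covariate) in R 4.3.3, with Benjamini-Hochberg adjustment over all 9580 genes. Standard errors are the log2 fold change over the root of F. DESeq2 1.42.0, limma 3.58.1 (voom) and an exact two-sided permutation test of log2 CPM (prior count 2) over 924 assignments, whose smallest p is 0.00216, were alternatives, with other scalings, filters, covariates and left-out libraries. Tests were checked on simulated counts. Correlations were permuted 100000 times within groups. Positions are from GENCODE, promoters from RefSeq, where 6 of 9 members matched. Motifs were searched on both strands of the 250 bases upstream.

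Members and lists were chosen with earlier results of these data known. Named were all members, up to 3 genes per list with the smallest p, and 2 genes most like each member. Psmb10 and Gbp5 were named after their values were seen, and 1 listed gene past the unadjusted limit is counted but not reported here. The matrix score without Fn1 and the fit of libraries 1 and 2 alone were also added after seeing the data.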

Additional observations from a re-analysis of the deposited data

Results flagged for a closer look

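Among 88 groups of 6 libraries, 9 had 1 library far from the other 5 by Dixon's gap over range, where chance gives about 4.4. Among members, Bhlhe40 was at 0 normalised molecules in DMSO library 1 and at 6.49 to 10.2 in the other 5, and Nr1h3 was at 0 in picrotoxin library 5 and at 2.01 to 2.76 in the others. Tcf4 was low in DMSO library 1 (29.1, others 40.8 to 45.7). Med1 was high in picrotoxin library 4 (34.1, others 15.7 to 21.4) and Chil3 in picrotoxin library 5 (15.0, others 6.43 to 8.41). Saa3 was high in DMSO library 5 (80.2, others at most 1.02) and, at 1 molecule, in picrotoxin library 2 (1.06, others 0). Lpl was high in DMSO library 5 (18.8, others 1.46 to 7.28) and in picrotoxin library 4 (32.1, others 1.06 to 12.7).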

How the results depend on the processing

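Over the alternatives, members gave 217 results on the same side, 12 with another sign and 1 newly past the adjusted limit, and the other named genes 916, 10 and 9. Genes called, 5 over all libraries, were 3 in limma-voom, 13 with library totals, 81 with every gene with at least 1 count, 27 with a term for numbers 1 and 2 (as against 3 to 6), 46 in libraries 3 to 6 alone, 0 in libraries 1 and 2 alone (edgeR, 513 at an unadjusted p under 0.05), 13 with the matrix score, 0 with that score without Fn1 (566 at an unadjusted p under 0.05), 1 without DMSO libraries 3 and 5, 12 with Rn45s left out, 0 in the exact permutation test (706 unadjusted) and 0 to 25 with 1 library left out. With library totals 28.9% of unadjusted calls were higher with picrotoxin, against 47.0%, and the median of all genes was -0.06. Members called were 1 in libraries 3 to 6 alone (Irf8), and members past the unadjusted limit were 2 with the matrix score (Irf8 and Maf) and 0 without DMSO libraries 3 and 5. Listed genes called were 3 with every gene with at least 1 count (Mafg, Saa3 and Mrc1), 1 with the number term (Saa3), 2 in libraries 3 to 6 alone (Saa3 and Arg1) and 0 to 1 with 1 library left out. Signs turned for Runx1 (-0.059 without DMSO libraries 3 and 5, -0.010 to 0.12 with 1 library left out, negative without DMSO library 5 or picrotoxin library 4), Bhlhe40 (0.042 with the matrix score without Fn1, 0.0089 with a prior count of 0.5), Nr1h3 (-0.36 with that score, -0.25 without DMSO libraries 3 and 5, -0.10 to 0.57 with 1 library left out, negative without DMSO library 5), Saa3 (1.21 with that score), Acsl1 (0.087 in libraries 3 to 6 alone) and Lpl (-0.31 to 1.31 with 1 library left out, negative without picrotoxin library 4). In libraries 1 and 2 alone the sign turned for Spi1 (-0.15), Runx1 (-0.13), Bhlhe40 (0.091), Nr1h3 (-0.30), Zeb2 (-0.073), Runx3 (-0.020), Csf2ra (-0.029), Arg1 (-0.13), Smpdl3a (-0.049) and Lpl (-1.96), and the member past the unadjusted limit was Cebpb in place of Irf8. The cause was not tested.

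Libraries of the same number were not alike by correlation: over 6 pairs their deviations correlated at -0.0164 to 0.0469, and 0 of 12 libraries correlated best with its own number. The labels do not say what equal numbers stand for, and these correlations cannot show whether such libraries shared handling or mice. The replicate block gave 43 genes called, 0 members and 2 listed genes (Saa3 and Mrc1), with Irf8 at 0.40 (edgeR adjusted p = 0.134). Depth limits Bhlhe40, Nr1h3 and Pparg, which had 0 to 12 molecules per library.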
